A study of Mus musculus with 6 samples.

Results

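A group of 10 regulators of mitochondrial biogenesis was followed in embryonic mouse hearts that lack a mitochondrial ribosomal protein gene in cardiomyocytes. They were taken by gene symbol from the table of expression values, with the transcripts of each gene summed, and comprised the coactivators Ppargc1a, Ppargc1b and Pprc1, the estrogen-related receptors Esrra, Esrrb and Esrrg, the transcription factors Nrf1 and Gabpa, the fatty acid receptor Ppara and the Krüppel-like factor Klf15. All 10 were among the 26191 genes of the table, and 9 of the 10 passed the filter on low values that left 13260 genes for testing. Ppara did not pass and is described by its values, with an estimate only from the fit without this filter. The control hearts were Mrps5 fl/fl and the mutant hearts Mrps5 fl/fl; cTNT-Cre, so both groups carried the floxed allele and only the mutants carried the transgene, in which a promoter of cardiac troponin T restricts Cre to cardiomyocytes. By design the other cells of the mutant hearts keep Mrps5. RNA was taken at embryonic day 12 from 3 control and 3 mutant pools of 5 hearts each, with littermates as controls, and no other treatment was given in the labels.

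PGC-1 coactivators do not bind DNA themselves. They dock on nuclear receptors and other transcription factors, chiefly the estrogen-related receptors (ERR), NRF1, GABP and the PPAR receptors, and raise the transcription of genes for oxidative phosphorylation, fatty acid oxidation and the upkeep of mitochondrial DNA. The heart is among the tissues richest in these factors, and their activity grows around birth when the heart turns from glucose to fatty acids.

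FPKM, the unit of the table, scales the fragments of a transcript by its length and by the number of mapped fragments. Depth cannot be read from it. Values per pool are given in the order of replicates 1, 2 and 3. Summed over all genes it lay between 454692 and 515952 per library. Mrps5, the targeted gene, was at 9.65, 11.4 and 10.4 FPKM in the control pools and at 5.28, 7.41 and 10.4 in the mutant pools. The pool labelled mutant replicate 3 was therefore at the control level, and the groups overlapped (log2 fold change -0.44, standard error 0.19, adjusted p = 0.338 from limma). Erythroid marker genes took 12.0% to 13.3% of the summed FPKM in control libraries, 10.8% in mutant replicate 2, and 23.5% and 21.96% in mutant replicate 1 and the pool labelled mutant replicate 3. For the regulators and the gene lists, the main counts and estimates are also given without this pool.

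Ppargc1a, Esrra and Esrrg lay below, and Klf15 above, all control values in each mutant pool. P-values measure the spread between 3 pools a group and not between single hearts. These 4 of the 9 tested regulators had an unadjusted p under 0.05, where 15.0% of all genes tested did. Separated into directions, 3 regulators were lower, against 9.43% of all genes, and 1 was higher, against 5.57%. Values of the groups did not overlap for the same 4 regulators, as for 20.8% of all genes (13.0% lower and 7.74% higher). After Benjamini-Hochberg adjustment over all genes none of the 9 was under 0.05 in limma, where 0.083% of genes were. The median log2 fold change was -0.12 over the 9 regulators and -0.02 over all genes tested. Without the pool labelled mutant replicate 3, an unadjusted p under 0.05 was left to 3 regulators (Ppargc1a, Esrrg and Klf15), where 15.2% of all genes had one, and Klf15 had an adjusted p of 0.0367 from limma, where 2.04% of genes passed, and no other regulator passed.

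**Figure D1:**
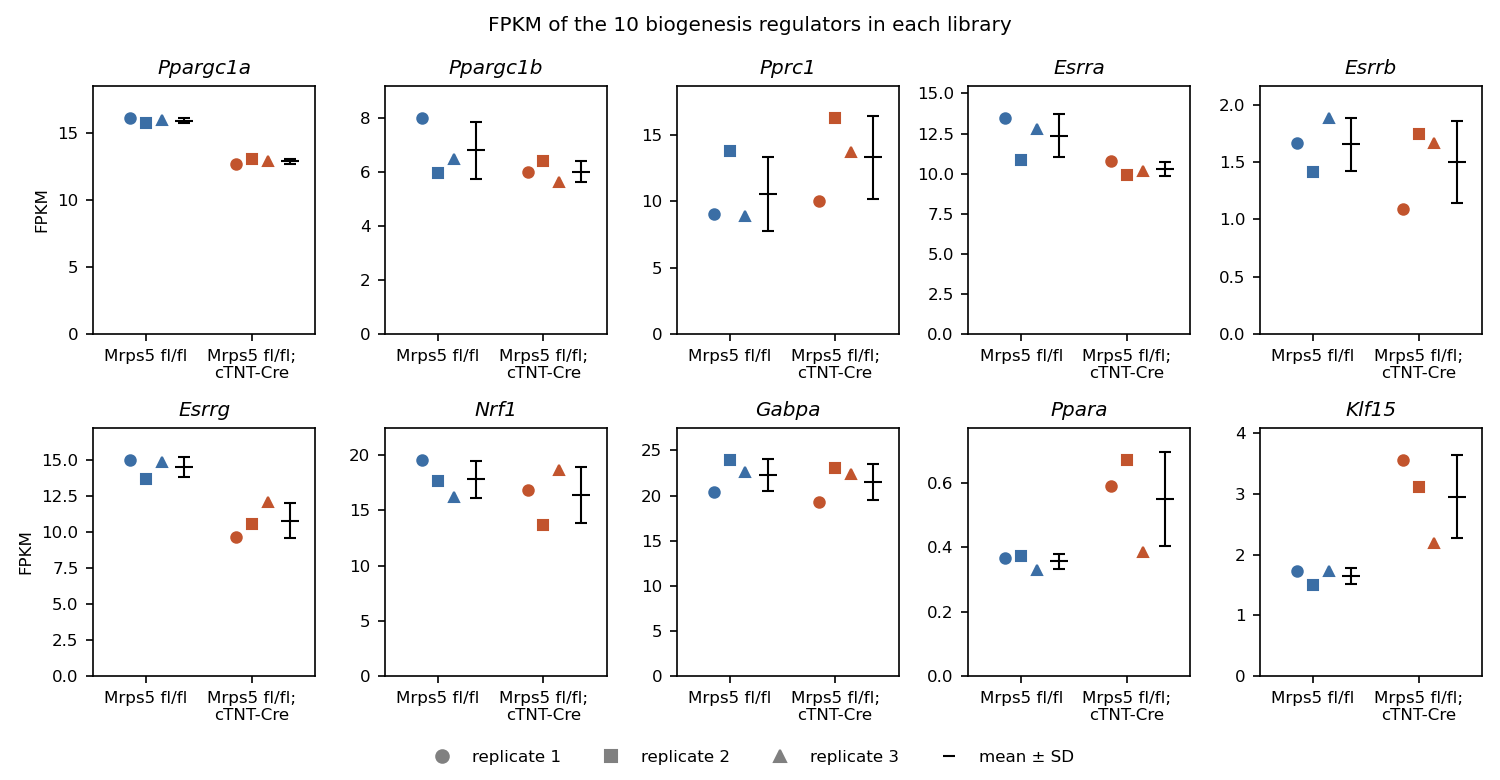
FPKM of each of the 10 regulators (y axes, linear and starting at 0) in the 3 control and 3 mutant pools (x axes), with symbols for the replicate number and bars for mean ± SD. Ppargc1a, Esrra and Esrrg lie lower and Klf15 and Ppara higher in all mutant pools than in any control pool, while the other 5 genes overlap.

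The regions before the transcription start of the 4 separated regulators are shown because the proteins of this circuit are known to bind one another's promoters. Each line holds 250 bases on the strand of the gene up to the RefSeq start in GRCm38.p6, written 5′ to 3′. Capitals mark matches to any of 5 motifs searched on both strands, namely AAGGTCA (the ERR core site), CCGGAAG (GABP), the palindromic NRF1 site with any base at its centre, CACGTG (the E-box, bound by basic helix-loop-helix factors such as MYC and clock proteins) and TGACGTCA (the cAMP response element).
Klf15, chr6:90462326-90462575, plus strand: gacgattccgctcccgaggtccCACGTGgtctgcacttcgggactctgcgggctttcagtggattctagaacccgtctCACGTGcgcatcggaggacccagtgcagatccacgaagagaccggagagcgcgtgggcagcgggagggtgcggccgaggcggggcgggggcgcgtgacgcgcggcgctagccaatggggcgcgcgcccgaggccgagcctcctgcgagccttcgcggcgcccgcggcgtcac
Ppargc1a, chr5:51567726-51567975, minus strand: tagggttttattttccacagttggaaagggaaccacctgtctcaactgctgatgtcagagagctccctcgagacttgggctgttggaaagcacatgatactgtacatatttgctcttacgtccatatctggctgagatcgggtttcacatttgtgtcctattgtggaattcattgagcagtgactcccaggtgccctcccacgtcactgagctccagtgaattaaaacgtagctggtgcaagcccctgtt
Esrra, chr19:6921809-6922058, minus strand: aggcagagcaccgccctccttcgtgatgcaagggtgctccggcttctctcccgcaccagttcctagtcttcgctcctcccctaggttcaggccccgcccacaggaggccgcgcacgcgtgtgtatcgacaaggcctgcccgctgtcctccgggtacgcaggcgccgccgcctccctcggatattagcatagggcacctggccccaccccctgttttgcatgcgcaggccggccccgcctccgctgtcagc
Esrrg, chr1:187608756-187609005, plus strand: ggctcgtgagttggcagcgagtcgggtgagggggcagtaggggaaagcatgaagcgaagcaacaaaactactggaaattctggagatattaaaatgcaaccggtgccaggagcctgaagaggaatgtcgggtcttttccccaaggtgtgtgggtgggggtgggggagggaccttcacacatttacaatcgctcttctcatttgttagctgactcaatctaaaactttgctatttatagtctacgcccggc

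Klf15 held E-boxes at 228 and 172 bases before the start. At least 1 E-box was found in 6.02% of the 32817 RefSeq windows of this length, and 2 or more in 0.43%. The windows of Ppargc1a, Esrra and Esrrg held none of the 5 motifs, which says only that these letters are not in these windows. The ERR core site was in 4.08% of all windows and the cAMP response element in 1.55%. Of the other regulators, Gabpa held a GABP site (CTTCCGG, the other strand of the motif) at 93 bases and Ppara an NRF1 site (GCGCATGCGC) at 31 bases before the start. GABP sites were in 6.9% and NRF1 sites in 3.73% of all windows, and the windows of Pprc1, Esrrb and Nrf1 held no match. Windows were found for 9 of the 10 genes. In GENCODE M21 the most abundant transcript of the table starts 13803 bases from the window for Ppargc1a and 39794 bases from it for Nrf1, and Esrrg has 4 RefSeq windows, of which the nearest to its most abundant transcript is shown.

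Ppargc1a encodes PGC-1α, the founding coactivator of the family and an inducer of oxidative metabolism in heart, muscle and brown fat. It stood at 16.1, 15.8 and 16.0 FPKM in the control pools and at 12.7, 13.1 and 12.9 FPKM in the mutant pools. Relative to its level it varied least within the groups among the 10 regulators, and every mutant library was below every control library. The mean was 15.9 ± 0.180 FPKM in control and 12.9 ± 0.210 FPKM in mutant hearts (SD, n = 3 each), a change of -19.1%. The log2 fold change was -0.29 (standard error 0.08, 95% confidence interval -0.46 to -0.11, adjusted p = 0.168 from limma), and it was the same without the pool labelled mutant replicate 3 (-0.29). With the libraries rescaled to the sum without erythroid genes it was -0.26 (adjusted p = 0.191 from limma). A single transcript made up 98.3% of the control and 99.4% of the mutant level.

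The coactivator gene Ppargc1b encodes PGC-1β, which shares much of the activity of PGC-1α. Its FPKM was 8.004, 5.97 and 6.49 in the control pools and 6.01, 6.41 and 5.63 in the mutant pools. The groups overlapped, with the highest value in control replicate 1. The log2 fold change was -0.15 (95% confidence interval -0.42 to 0.12, adjusted p = 0.594 from limma). This interval holds the estimate for Ppargc1a as well as no change. Leaving out 1 replicate gave -0.23 to -0.04, the latter without control replicate 1.

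Pprc1 encodes the coactivator PRC, a serum-responsive member of the family that works with NRF1. The values were 9.04, 13.8 and 8.86 FPKM in the control pools and 10.03, 16.2 and 13.7 FPKM in the mutant pools. Replicate 2 was the highest library in both groups, and control replicate 2 lay above 2 of the 3 mutants. The log2 fold change was 0.31 (95% confidence interval -0.15 to 0.77, adjusted p = 0.503 from limma). It was 0.50 without control replicate 2 and 0.49 without mutant replicate 1, and the unadjusted p was then under 0.05 (adjusted p = 0.336 and 0.399 from limma). Without mutant replicate 2 it was 0.17, without control replicate 3 0.21 and without control replicate 1 0.22. Without the pool labelled mutant replicate 3 it was 0.28. In these fits the unadjusted p stayed above 0.05.

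The coactivators together summed to 33.3 ± 2.096 FPKM (SD, n = 3) in control and 32.3 ± 3.52 FPKM (SD, n = 3) in mutant hearts. Ppargc1a made up 48.6%, 44.4% and 51.0% of this sum in the control pools and 44.1%, 36.6% and 40.1% in the mutant pools. Its share was lower in all mutant libraries than in any control library, though by little between mutant replicate 1 and control replicate 2 (two-sided exact permutation p = 0.1, the smallest that 3 against 3 allows). Pprc1 made up 31.5% ± 6.38 in control and 41.0% ± 5.43 in mutant hearts (SD, n = 3 each), with overlapping values (exact permutation p = 0.2). For Ppargc1b the shares were 20.6% ± 3.66 and 18.8% ± 1.89 (SD, n = 3 each, exact permutation p = 0.7). The summed coactivator level thus differed by less than its spread between pools, with Ppargc1a the largest contributor in each control pool and Pprc1 the larger of the pair in 2 of the 3 mutant pools.

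The estrogen-related receptors are orphan nuclear receptors through which PGC-1 coactivators reach most genes of oxidative metabolism. Esrrg, encoding ERRγ, which is needed for the perinatal switch to oxidative metabolism in the heart, was at 15.0, 13.7 and 14.8 FPKM in the control pools. In the mutant pools it was at 9.66, 10.6 and 12.1 FPKM. All mutant values were below all control values, and they came nearer to the controls from replicate 1 through 2 to the pool labelled mutant replicate 3, the same order as Mrps5. The mean was 14.5 ± 0.696 FPKM in control and 10.8 ± 1.22 FPKM in mutant hearts (SD, n = 3 each), a change of -25.7%, or -0.40 on the log2 scale (standard error 0.10, 95% confidence interval -0.63 to -0.17, adjusted p = 0.16 from limma). Without the pool labelled mutant replicate 3 it was -0.48 (adjusted p = 0.0557 from limma).

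Esrrg was carried by a pair of transcripts. The first, with 55.7% of the control level, was at 8.40, 8.23 and 7.60 FPKM in the control and 6.41, 5.72 and 6.91 FPKM in the mutant pools, again without overlap. The second, with 39.7%, was at 6.35, 4.66 and 6.24 FPKM in the control and 2.28, 4.51 and 4.80 FPKM in the mutant pools. Here the values overlapped, and mutant replicate 1 was well below the rest.

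Esrra encodes ERRα, a receptor of the same family that is itself a target of PGC-1α. It was at 13.4, 10.9 and 12.8 FPKM in the control pools and at 10.8, 9.94 and 10.1 FPKM in the mutant pools. The groups were separated only narrowly, by mutant replicate 1 at 10.77 and control replicate 2 at 10.86 FPKM. The log2 fold change was -0.24 (standard error 0.10, 95% confidence interval -0.47 to -0.01, adjusted p = 0.313 from limma). The unadjusted p was above 0.05 when mutant replicate 2, the pool labelled mutant replicate 3, control replicate 1 or control replicate 3 was left out, with log2 fold changes of -0.22, -0.23, -0.18 and -0.22. It was also above 0.05 when the libraries were rescaled by the median of ratios (log2 fold change -0.22) or to the sum without erythroid genes (-0.22). Trmt112, which overlaps Esrra on the other strand in GENCODE M21, averaged 20.6 FPKM, and whether the counting used the strand is not given in the sources used here.

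Esrrb, encoding ERRβ and best known from stem cells and the placenta, was the lowest of the receptor family, at 1.67, 1.42 and 1.88 FPKM in the control and 1.09, 1.74 and 1.67 FPKM in the mutant pools. The values overlapped (log2 fold change -0.09, adjusted p = 0.815 from limma). Together the receptors of the family summed to 28.5 ± 2.22 FPKM (SD, n = 3) in control and 22.6 ± 1.21 FPKM (SD, n = 3) in mutant hearts. Esrrg took 50.9% ± 1.595 of this sum in control and 47.7% ± 2.82 in mutant hearts (SD, n = 3 each, exact permutation p = 0.3). Esrra took 43.3% ± 1.45 and 45.7% ± 3.89 (SD, n = 3 each, exact permutation p = 0.5). With 3 pools a group these tests cannot go below 0.1, so they do not say whether the composition differed. The sum was lower in each mutant library, at 21.5, 22.3 and 23.9 FPKM against 30.1, 26.0 and 29.5 FPKM.

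Nrf1 encodes nuclear respiratory factor 1, an activator of genes for respiratory chain subunits and for the factors that copy and transcribe mitochondrial DNA. It was at 19.5, 17.6 and 16.2 FPKM in the control pools and at 16.8, 13.7 and 18.7 FPKM in the mutant pools. The values overlapped and mutant replicate 2 was the lowest (log2 fold change -0.12, 95% confidence interval -0.40 to 0.16, adjusted p = 0.694 from limma). Without mutant replicate 2 the log2 fold change was -0.003, and without the pool labelled mutant replicate 3 it was -0.21. The table splits this gene over 17 transcripts, and 3 of them, at 4.28, 1.06 and 0.538 FPKM in mutant replicate 2, are listed at 0 in the other libraries. Values of single Nrf1 transcripts are not interpreted for this reason.

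Gabpa, the DNA-binding subunit of GABP (nuclear respiratory factor 2), was the most abundant of the 10 genes. It was at 20.4, 23.9 and 22.6 FPKM in the control pools and at 19.3, 23.0 and 22.4 FPKM in the mutant pools. Both groups spanned nearly the same range (log2 fold change -0.05, 95% confidence interval -0.28 to 0.18, adjusted p = 0.853 from limma). The interval does not reach the estimate for Esrrg but holds that for Esrra. The neighbouring Atp5j, which overlaps Gabpa on the other strand, averaged 196 FPKM.

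Ppara encodes the receptor that drives fatty acid oxidation genes in the heart after birth. It was at 0.369, 0.373 and 0.329 FPKM in the control pools and at 0.592, 0.671 and 0.388 FPKM in the mutant pools. The mutants were higher, the pool labelled mutant replicate 3 by little. In that library and in the controls all of the level came from 1 transcript, whereas in mutant replicates 1 and 2 a second one, listed at 0 elsewhere, contributed 0.592 and 0.387 FPKM. When no filter was applied, the difference was 0.19 log2 units (adjusted p = 0.444 from limma).

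Klf15 encodes a zinc finger factor of lipid, glucose and amino acid metabolism in heart and muscle, and is induced by glucocorticoids. It stood at 1.73, 1.498 and 1.73 FPKM in the control pools and at 3.56, 3.12 and 2.202 FPKM in the mutant pools. All mutants were higher than all controls, and the pool labelled mutant replicate 3 was the nearest to them. The mean was 1.65 ± 0.133 FPKM in control and 2.96 ± 0.692 FPKM in mutant hearts (SD, n = 3 each), a change of 79.3%. The log2 fold change was 0.56 (standard error 0.15, 95% confidence interval 0.22 to 0.91, adjusted p = 0.17 from limma) on the log2(FPKM + 1) scale, which understates the change of a gene at this level, and 0.78 with 0.1 added in place of 1. Without the pool labelled mutant replicate 3 it was 0.71 (adjusted p = 0.0367 from limma).

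Most of the difference in Klf15 came from 1 of its 5 transcripts. That transcript was at 0.55, 1.29 and 0.445 FPKM in the control and 2.78, 2.58 and 0.631 FPKM in the mutant pools. It thus exceeded every control in mutant replicates 1 and 2 and fell within the control range in the pool labelled mutant replicate 3, and its own log2 fold change of 0.70 had an unadjusted p above 0.05 (adjusted p = 0.477 from limma). It supplied 46.1% of the gene's level in control and 67.4% in mutant hearts. The transcript that ranked next went from 31.2% to 14.4%.

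**Figure D2:**
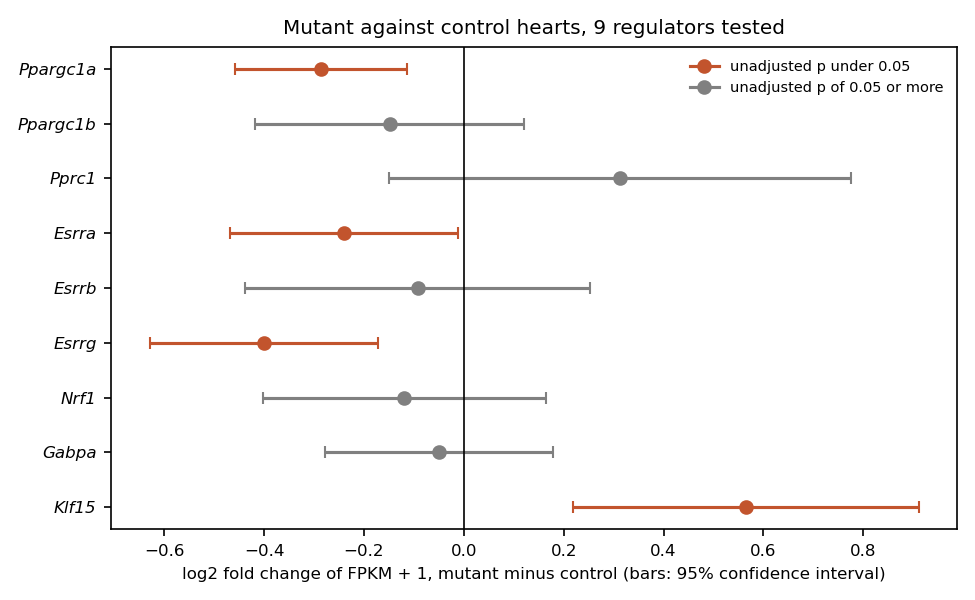
Log2 fold change of FPKM + 1 in mutant against control hearts (x axis) for the 9 tested regulators (y axis), with points for the limma estimates and bars for 95% confidence intervals. The intervals of Ppargc1a, Esrra and Esrrg lie below 0 and that of Klf15 above 0, while the other 5 span 0.

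In control hearts the regulators ranked from Gabpa at 22.3 FPKM through Nrf1 at 17.8, Ppargc1a at 15.9, Esrrg at 14.5, Esrra at 12.4, Pprc1 at 10.6 and Ppargc1b at 6.82 to Esrrb at 1.66, Klf15 at 1.65 and Ppara at 0.357 FPKM, values that are scaled by transcript length. The control values of Esrra overlapped with those of Pprc1, and those of Esrrb with those of Klf15. All other neighbours were apart. In mutant hearts Klf15 stood apart from Esrrb and above it, and Esrrg, Esrra and Pprc1 all overlapped. Pprc1, at a mean of 13.3 FPKM in mutant hearts, also overlapped with Ppargc1a at 12.9 FPKM and with Nrf1.

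Over the 6 libraries the log2 values of Ppargc1a and Esrrg correlated at a Pearson r of 0.93, Ppargc1a and Esrra at 0.81, and Esrrg and Klf15 at -0.95. These coefficients describe 6 libraries that fall into the study's groups and share their scaling, so no p is given. Among 13259 genes, those most like Esrrg over the libraries were Ears2 (r = 0.998), Hmgn3 (r = 0.998) and Hdac9 (r = 0.995), which encode a mitochondrial glutamyl-tRNA synthetase, a nucleosome-binding protein and a histone deacetylase. Esrrg had 476 genes at r above 0.9. For Ppargc1a they were Zmym1 (r = 0.997), Tmem218 (r = 0.997) and Tnnt2 (r = 0.993), the last encoding cardiac troponin T, with 363 genes at r above 0.9.

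**Figure D3:**
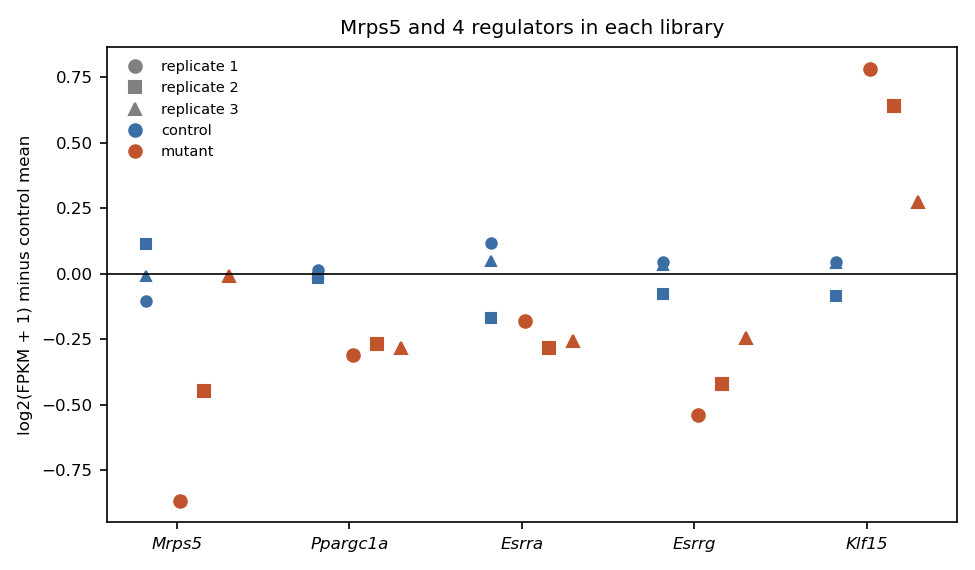
Log2(FPKM + 1) minus the control mean (y axis) for Mrps5 and the 4 separated regulators (x axis), with colours for genotype and symbols for replicate number. Mutant replicates lie at -0.87, -0.44 and -0.01 for Mrps5, at -0.54, -0.42 and -0.24 for Esrrg and at 0.78, 0.64 and 0.27 for Klf15, while for Ppargc1a they lie within 0.05 of one another.

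Esrrg and Klf15 followed the order of Mrps5 over the mutant libraries, farthest from the controls in replicate 1 and nearest in the pool labelled mutant replicate 3. Ppargc1a and Esrra did not follow it. Among the 2754 genes whose groups did not overlap, the same order was found in 615, or 22.3%, and the pool labelled mutant replicate 3 was the nearest to the controls in 37.4%. An order of 3 libraries is a description of them and was not tested.

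Levels of cardiomyocyte genes moved in the same direction as those of the lower regulators. All 10 cardiomyocyte markers had a log2 fold change below 0 in mutant hearts, as 55% of all genes did, with a median of -0.40. Of these 6 had an unadjusted p under 0.05, where 9.43% of all genes were lower with one, and 0 passed after adjustment in limma. The estimates ran from -0.60 for Tnnt2 to -0.03 for Myh6, and Myh6, Nkx2-5 and Actc1 overlapped between the groups. No marker was at 0 in any group. Their summed FPKM was 9619 to 11510 in control and 7722 to 9270 in mutant libraries. In bulk RNA, fewer cardiomyocytes and less RNA per cardiomyocyte cannot be told apart. The mean log2(FPKM + 1) of the markers was 9.29, 9.09 and 9.26 in the control and 8.75, 8.86 and 9.02 in the mutant pools.

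Set against this mean, a view chosen after the values were seen and given with no test, the difference between mutant and control hearts was 0.06 log2 units for Ppargc1a, 0.10 for Esrra and -0.06 for Esrrg. Relative to the markers, Ppargc1a and Esrra overlapped between the groups. Esrrg lay at -5.30, -5.21 and -5.28 in the control and at -5.33, -5.32 and -5.31 in the mutant pools, a separation of less than the spread among the controls. For Klf15 the difference relative to the markers was 0.91 log2 units, with all mutants above all controls, and 1.13 without the pool labelled mutant replicate 3. The difference was 0.65 for Pprc1, 0.29 for Gabpa and 0.22 for Nrf1 with overlapping values. The difference was 0.19 for Ppargc1b, also with overlapping values, and 0.25 for Esrrb and 0.53 for Ppara, with all mutants above all controls. The 1 added to FPKM flattens differences at the level of Esrrb, Ppara and Klf15. The marker mean itself differed by -0.34, so a gene without a difference of its own rises relative to it. The part of cardiomyocyte content in the lower levels of Ppargc1a, Esrra and Esrrg was not tested further.

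Among markers of other cells, 10 of 11 erythroid genes in the table were higher, where 5967 of the 13260 genes tested were. Of these, 5 had an unadjusted p under 0.05, where 5.57% of all genes were higher with one. Values of the groups overlapped for every erythroid gene. The erythroid share was raised in mutant replicate 1 and the pool labelled mutant replicate 3 only. With the libraries rescaled to the sum without erythroid genes, the log2 fold changes were -0.26 for Ppargc1a, -0.38 for Esrrg and 0.58 for Klf15, each with an unadjusted p under 0.05, and -0.22 for Esrra with one above it. Liver markers summed to 132, 286 and 21.7 FPKM in the control pools and to 87.2, 176 and 132 FPKM in the mutant pools, and did not separate the groups. Medians were -0.07 for endothelial and endocardial, 0.08 for epicardial, 0.09 for mesenchymal, -0.25 for smooth muscle and -0.07 for macrophage markers. The single tested marker of neural crest and glia was at -0.42. No marker list had a gene under an adjusted p of 0.05 in limma.

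Factors that act with or on the regulators lay on both sides of no change. Of 60 listed partners, kinases, acetylases and corepressors, 56 were tested, with 24 above and 32 below no change and a median difference of -0.02 on the log2 scale, as over all genes. An unadjusted p under 0.05 was reached by 3 of the higher and 4 of the lower genes, or 12.5% against 15.0% of all genes, and 0 had an adjusted p under 0.05. Leaving out Nr0b2, which reached 1 FPKM in control pools only, a choice made after the values were seen, gave 6 of 55 (10.9%). Without the pool labelled mutant replicate 3 the count was 14, or 25% of the list against 15.2% of all genes.

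The growth regulator Myc, whose protein binds E-boxes with its partner MAX, had the smallest p of the list. It was at 8.57, 12.4 and 8.99 FPKM in the control and 13.8, 17.1 and 15.1 FPKM in the mutant pools. Every mutant exceeded every control (log2 fold change 0.58, standard error 0.14, adjusted p = 0.159 from limma). Nr3c1, the glucocorticoid receptor gene, was lower, at 14.1, 12.9 and 10.6 FPKM in the control and 8.09, 9.99 and 9.11 FPKM in the mutant pools (log2 fold change -0.42, adjusted p = 0.195 from limma).

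The calcium-dependent kinase gene Camk2d was lower by 0.34 on the log2 scale (adjusted p = 0.212 from limma), at 15.2 to 17.9 FPKM in mutant against 19.4 to 23.9 FPKM in control libraries. Carm1, an arginine methyltransferase and coactivator partner, was at 32.0 to 32.4 FPKM in control and 36.2 to 38.7 FPKM in mutant libraries (log2 fold change 0.21, adjusted p = 0.26 from limma). For Nr0b2, an orphan receptor that represses other receptors, the difference was -0.38 log2 units (adjusted p = 0.272 from limma) at a level of 1.14 FPKM in controls, and since it reached 1 FPKM in the control pools only, it entered the test through the group where it is high. Kat2b, an acetylase, and Creb1, the factor that binds cAMP response elements, also had an unadjusted p under 0.05 (log2 fold changes -0.22 and 0.55), and Creb1 overlapped between the groups. Tfam, which packages and transcribes mitochondrial DNA and is a known target of NRF1 and GABP, was at 12.4, 13.8 and 12.4 FPKM in the control and 11.3, 13.9 and 11.5 FPKM in the mutant pools. Kat2b, Creb1 and Tfam were chosen for mention after their values were seen.

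Known targets of the ERR and PGC-1 proteins were more often lower than higher, as all genes were. Of 38 listed, 36 were tested, 24 were lower and 12 higher (66.7% lower, against 55% of all genes), and the median log2 fold change was -0.11 against -0.02 over all genes. An unadjusted p under 0.05 was found for 10 lower genes and 1 higher gene, or 30.6% of the list against 15.0% of all genes, and 0 passed after adjustment in limma. Leaving out Ckm, which also reached 1 FPKM in control pools only, gave 10 of 35 (28.6%), again a choice made after the values were seen. With Ckm, the count was 6 without mutant replicate 1, where 1509 of the 13260 genes were called, and 14 without the pool labelled mutant replicate 3 (38.9% of the list against 15.2% of all genes). Several of these targets are muscle genes, and the cardiomyocyte markers were lower too, 10 of 10 with a median of -0.40. The part of cardiomyocyte content in these targets was not tested. The 5 lists share some genes, Acadm, Cycs and Tfam among them.

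Of these targets, Cox7a1 and Cox8b encode muscle forms of cytochrome c oxidase subunits. Cox7a1 was at 83.1, 82.8 and 86.0 FPKM in the control and 52.3, 53.4 and 62.0 FPKM in the mutant pools (log2 fold change -0.58, adjusted p = 0.0643 from limma). Cox8b was at 8.85, 9.06 and 10.8 FPKM in the control and 6.51, 4.29 and 4.79 FPKM in the mutant pools (log2 fold change -0.78, adjusted p = 0.101 from limma). Both were lower in every mutant pool, the pool labelled mutant replicate 3 included. Acadm, the medium-chain acyl-CoA dehydrogenase of fatty acid oxidation, had a log2 fold change of -0.38, Atp5g3, an ATP synthase subunit, -0.33 and the muscle creatine kinase gene Ckm -0.59, all without overlap (adjusted p between 0.173 and 0.223 from limma). Ckm, at 1.07 to 2.09 FPKM in control and 0.506 to 0.928 FPKM in mutant pools, passed the filter through the controls only, so that it was bound to differ.

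Cox6a2, a further muscle form of a cytochrome c oxidase subunit, was the only target of this list that was higher with an unadjusted p under 0.05, and was picked for this after its values were seen. It was at 74.6, 74.9 and 91.2 FPKM in the control and 189, 182 and 82.0 FPKM in the mutant pools. The pool labelled mutant replicate 3 lay within the controls, so the groups overlapped (log2 fold change 0.81, adjusted p = 0.256 from limma). Without that pool the difference was 1.20 (adjusted p = 0.00184 from limma), where 2.04% of all genes passed.

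**Figure D4:**
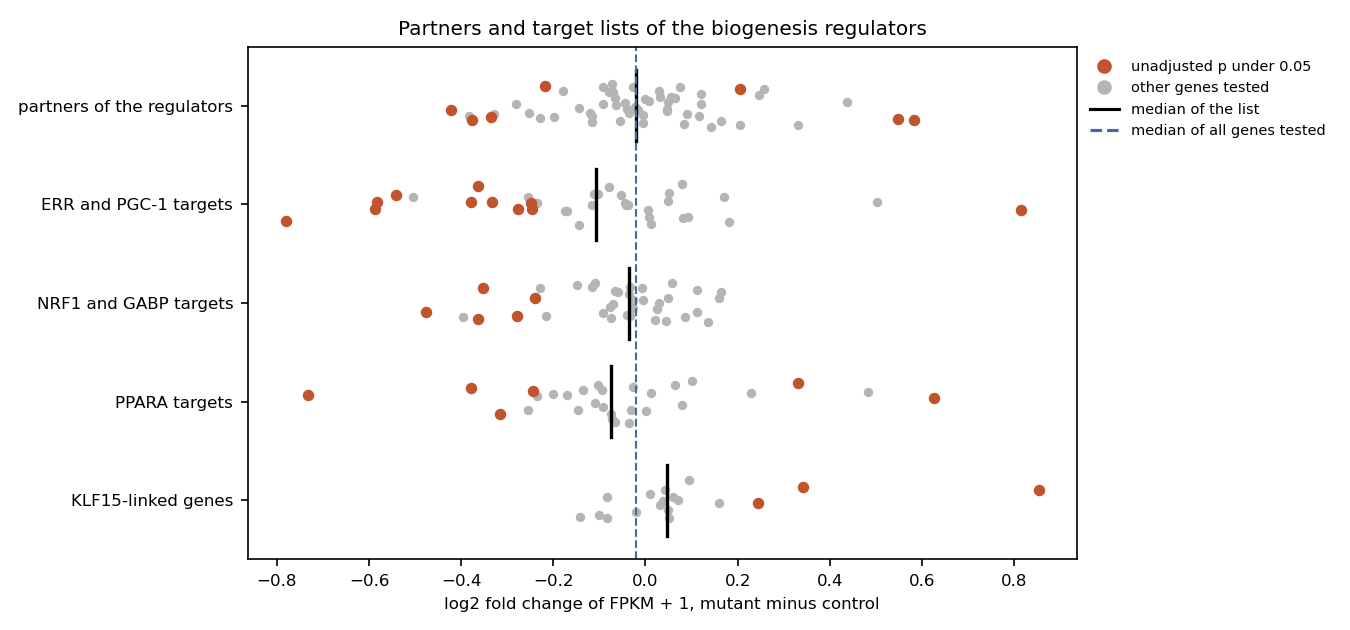
Log2 fold change of FPKM + 1 in mutant against control hearts (x axis) for the genes tested in each of 5 lists (y axis, points spread at random within a row), with black lines for the median of a list, a dashed line for the median of all genes tested at -0.02, and colour for an unadjusted p under 0.05. ERR and PGC-1 targets have 10 coloured points below 0 and 1 above, and KLF15-linked genes 3 above.

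Known targets of NRF1 and GABP numbered 37, all tested. Of them 25 were lower and 12 higher (67.6% lower, against 55% of all genes), with a median of -0.03. An unadjusted p under 0.05 was found for 5, all lower, or 13.5% of the list against 15.0% of all genes in either direction and 9.43% lower. This count was 1 without mutant replicate 1, where 1509 of the 13260 genes were called, and 2 without control replicate 3, where 1566 were. It was 7 without the pool labelled mutant replicate 3 (18.9% of the list against 15.2% of all genes). Uqcrh, a subunit of respiratory complex III, was at 320, 332 and 349 FPKM in the control and 228, 223 and 270 FPKM in the mutant pools (log2 fold change -0.48, adjusted p = 0.139 from limma). The other 4 were the complex II subunit Sdhd (-0.35), cytochrome c, Cycs (-0.36), the complex III subunit Uqcrb (-0.28) and the cytochrome c oxidase subunit Cox6b1 (-0.24), none overlapping between the groups.

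PPARA targets numbered 36, of which 29 were tested. The median was -0.08, with 20 lower and 9 higher (69.0% lower, against 55% of all genes), and 4 lower and 2 higher genes had an unadjusted p under 0.05, or 20.7% of the list against 15.0% of all genes (9.43% lower and 5.57% higher). Without the pool labelled mutant replicate 3 it was 8 genes, or 27.6% against 15.2% of all genes. Txnip, an inhibitor of thioredoxin and of glucose uptake, was at 52.3, 40.8 and 50.1 FPKM in the control and 24.8, 31.2 and 29.0 FPKM in the mutant pools (log2 fold change -0.73, adjusted p = 0.0779 from limma). The thiolase gene Acaa2 had a log2 fold change of -0.32 (adjusted p = 0.228 from limma). In the other direction, the lipid droplet coat gene Plin2 was at 20.7, 24.1 and 20.9 FPKM in the control and 27.5, 27.3 and 28.4 FPKM in the mutant pools (log2 fold change 0.33, adjusted p = 0.168 from limma). The thioesterase gene Acot2 had a log2 fold change of 0.63 (adjusted p = 0.172 from limma). Without the pool labelled mutant replicate 3 it was 0.82 (adjusted p = 0.0162 from limma), where 2.04% of all genes passed.

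The list linked to KLF15 held 20 genes of branched-chain amino acid, proline and alanine metabolism, glucose transport and cardiac repolarization, together with targets of the glucocorticoid receptor. Of the 18 tested, 13 were higher and 5 lower (27.8% lower, against 55% of all genes), with a median of 0.05. An unadjusted p under 0.05 was found for 3, all higher, or 16.7% of the list against 15.0% of all genes in either direction and 5.57% higher, with 0 under 0.05 after adjustment in limma. The count was also 3 without the pool labelled mutant replicate 3. Gpt2, the mitochondrial alanine transaminase, was at 4.10, 4.94 and 4.36 FPKM in the control and 11.3, 11.5 and 5.22 FPKM in the mutant pools (log2 fold change 0.85, standard error 0.25, adjusted p = 0.195 from limma). The pool labelled mutant replicate 3 lay just above the controls. Without it the difference was 1.19 (adjusted p = 0.00134 from limma), where 2.04% of all genes passed. Of single list genes this fit is given only for Cox6a2, Acot2 and Gpt2, picked after the values were seen. In each of them that pool was the mutant pool nearest to the controls. The insulin-responsive glucose transporter gene Slc2a4 was at 7.92, 7.82 and 8.03 FPKM in the control and 10.7, 9.27 and 11.1 FPKM in the mutant pools (log2 fold change 0.34, adjusted p = 0.172 from limma), and Acadsb, a dehydrogenase of branched-chain amino acid breakdown, had a log2 fold change of 0.25 (adjusted p = 0.231 from limma). The 5 glucocorticoid targets tested, Fkbp5, Per1, Klf9, Tsc22d3 and Sgk1, had log2 fold changes between -0.08 and 0.16, and the groups overlapped for each, a subset set apart after the values were seen.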

How the data were processed

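Total RNA of pooled embryonic mouse hearts was depleted of ribosomal RNA and made into strand-specific libraries, 3 control and 3 mutant. The study's published methods describe mRNA selected with poly-T beads and do not name the embryonic hearts, so the sources differ on this step. The authors deposited 1 table of FPKM values, with 1 value per transcript and library and no read counts, so the depth of a library is unknown and no counting intervals are given. The submitters' processing notes name Bowtie2 2.2.8, HISAT2, StringTie 1.3.1, Cuffdiff 2.1.1 and the build mm9, without saying which tool made the table. The annotation release is not given in the sources used here.

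Groups were taken from the sample labels. Transcript FPKM were summed per gene. A linear model with a moderated variance (limma 3.58.1 under R 4.3.3, functions lmFit and eBayes, trend allowed) was fitted to log2(FPKM + 1) for 13260 genes, those that reached 1 FPKM in 3 or more of 6 libraries. P-values were two-sided and adjusted by the Benjamini-Hochberg method over all genes tested. A value of 0 may be a failed estimate. Shares within the coactivator and receptor families were compared with exact permutation tests in scipy 1.17.1. The fit was tested on simulated data. Promoter windows were matched by symbol in RefSeq (GRCm38.p6). The table holds no coordinates.

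The regulators, the 5 lists of partners and targets and the cell type markers were chosen with earlier results of these data known. Genes named from a list had an unadjusted p under 0.05 and groups that do not overlap, at most 5 a list in order of p. Genes most like a regulator were the 3 with the highest Pearson r, for the 2 regulators with the smallest p. Alternatives were another pseudocount, other filters, other scalings, the most abundant transcript alone, the replicate number as a block and each replicate left out.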

Additional observations from a re-analysis of the deposited data

How the results depend on the processing

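Over 13 alternatives, Ppargc1a stayed between -0.30 and -0.26, Esrrg between -0.48 and -0.31 and Klf15 between 0.46 and 0.78, with an unadjusted p under 0.05 throughout except for Klf15 by its most abundant transcript alone (0.70). At a required mean of 5 FPKM, Klf15 and Esrrb were not tested. With the replicate number as a block, Ppargc1a, Esrra, Esrrg and Klf15 kept an unadjusted p under 0.05 (adjusted p = 0.178, 0.254, 0.155 and 0.171 from limma), where 16.7% of all genes were under it, and Pprc1 at 0.31 and Mrps5 at -0.44 fell under it as well. Genes with an unadjusted p under 0.05 numbered 1990, 1314 when a mean of 5 FPKM was required, and 1216 to 2167 when 1 replicate was left out. Genes with an adjusted p under 0.05 numbered 11, 4 by the most abundant transcript alone, 6 with no filter, 4 with the replicate block, and 5 to 270 when 1 replicate was left out, the most without the pool labelled mutant replicate 3. Leaving out 1 replicate gave 3 to 5 regulators with an unadjusted and 0 to 1 with an adjusted p under 0.05, and put Mrps5 at -0.66 to -0.23. It gave 5 to 14 biogenesis partners, 6 to 14 ERR and PGC-1 targets, 1 to 7 NRF1 and GABP targets, 4 to 8 PPARA targets and 2 to 3 KLF15-linked genes with an unadjusted p under 0.05. Without mutant replicate 1 the sign reversed for Esrrb (0.031, in a range from -0.164 when 1 replicate was left out) and Gabpa (0.026, from -0.109). The cause of these shifts was not tested.

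Deviations from the group means correlated at 0.217, 0.11 and 0.09 between control and mutant pools of equal replicate number, and every library correlated best with its own number, a hint from the data and not from the design. The controls were littermates, but the labels do not say that pools with a shared number came from the same litters. The block is therefore given as an alternative. With 3 pools a group and FPKM alone, genes near 1 FPKM such as Klf15, Esrrb and Ppara are uncertain. Among the 9 regulators tested the standard error was largest for Pprc1 (0.20), followed by Klf15 and Esrrb (0.15 each). Both rescalings moved the median of all genes by less than 0.1 log2 units.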
